A study of Mus musculus with 10 samples.

Results

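The cytosolic ribosomal protein genes encode the proteins that, with ribosomal RNA, build the large and small subunits of the ribosome outside the mitochondria. Members were taken by gene symbol (Rpl or Rps followed by a number, Rpsa, and the stalk genes Rplp0 to Rplp2, without pseudogene rows and S6 kinases) and had to reach a normalised count of at least 10 in at least 5 of 10 libraries. The rule left 80 genes, 48 of the large and 32 of the small subunit, out of 17556 genes tested and 31510 in the table. Of 83 matching symbols, 3 fell short of that level. Rpl10l was listed at 0 in all 10 libraries, Rpl39l did not exceed 2.58, and Rpl3l, a form known from striated muscle, lay between 3.50 and 14.1.

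The samples were micro-dissected hippocampi of 10 male APP/PS1 mice, which carry transgenes for mutant human amyloid precursor protein and presenilin and deposit amyloid in the brain. At 8 months of age, 5 of them received AAV8-irisin-FLAG by tail vein and 5 received AAV8-GFP, and tissue was taken 2 months later. The vector was meant to make the liver release irisin, the secreted part of the exercise-induced membrane protein Fndc5, and was given to the circulation and not to the brain. Both groups carried the transgenes, so the comparison holds no mouse without them, and no mouse without vector.

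In each ribosome nearly every one of these proteins is present once, and cells make them in matched amounts from genes scattered over the genome. Most of their messenger RNAs begin with a run of pyrimidines (a 5′ terminal oligopyrimidine or TOP sequence), through which mTORC1 and the RNA-binding protein Larp1 control their translation. A level of messenger RNA therefore reports neither how much protein was made nor how many ribosomes a cell held.

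Most of the ribosomal protein genes had a slightly lower mean in AAV8-irisin hippocampi than in AAV8-GFP hippocampi, and no single gene passed the test. In the large subunit 44 of 48 genes had the lower mean, and over all 48 the median log2 difference was -0.032. In the small subunit 30 of 32 did, with a median of -0.045. Across all tested genes 49.5% had a lower mean in AAV8-irisin and the median was 0.00099. The SD between mice of the subunit mean was larger, 0.068 for the large and 0.079 for the small subunit on the same log2 scale. The differences rested largely on AAV8-GFP mouse 1: without it 26 large and 22 small subunit genes had the lower mean, beside 50.2% of all genes, and the medians were -0.0020 and -0.0075.

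The test was limma on log2(value + 1), two-sided, with Benjamini-Hochberg adjustment over all 17556 genes and a threshold of 0.05. It called 0 of the 17556 genes (0%). Before adjustment 788 genes (4.49%) had a p under 0.05, and 0 of the 80 ribosomal protein genes were among them. For no member did the 5 AAV8-irisin values lie wholly below or wholly above the 5 AAV8-GFP values, which was the case for 0.422% of all genes in the lower and 0.382% in the higher direction. The median standard error of the log2 difference was 0.048 over the members. The 95% intervals of all 80 members held 0. Since the tissue is a mixture of cells, fewer cells of a type and less RNA per cell cannot be told apart.

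**Figure D1:**
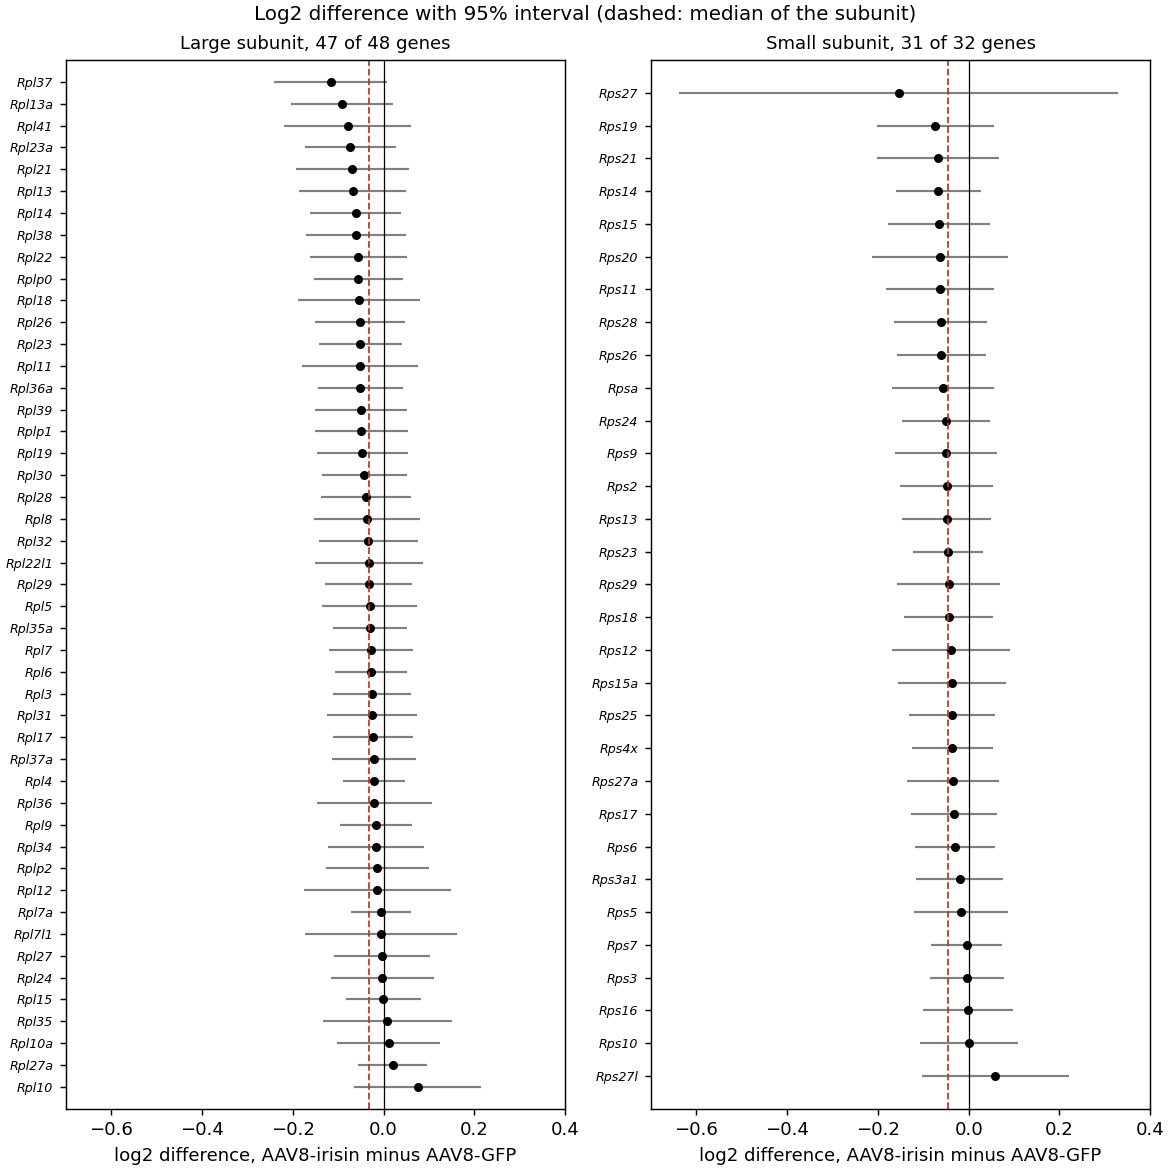
Log2 difference (AAV8-irisin minus AAV8-GFP, x axis) of 47 of the 48 large subunit genes (left) and 31 of the 32 small subunit genes (right), as points with 95% intervals from limma; the dashed line is the median of the whole subunit. Of the genes drawn, 43 large and 29 small subunit genes lie below 0, every interval crosses 0, and Rps27 has the widest interval, -0.64 to 0.33.

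The 10 libraries summed to normalised counts of 35284321 to 36623029, and the estimated depth was 30705458 to 41508590 reads. All 8 markers of pyramidal and granule neurons were measured, and their summed share of the library was 0.887% to 0.937% in AAV8-irisin mice and 0.834% to 0.998% in AAV8-GFP mice. In direction 5 of these 8 had the lower mean in AAV8-irisin (median -0.016). All 12 microglial markers had a lower mean in AAV8-irisin (median log2 difference -0.13), and their summed values were 17774 to 22381 normalised counts in AAV8-irisin mice against 19248 to 25540 in AAV8-GFP mice. The 5 blood markers tested, without Slc4a1, which was below the filter, had lower means as well (median -0.65), with sums of 1669 to 3211 in AAV8-irisin mice against 1586 to 4502 in AAV8-GFP mice. Of the 8 choroid plexus markers 5 were tested, Kcnj13, Otx2 and Slc4a5 being below the filter, and all 5 means were higher in AAV8-irisin (median 0.56), with summed values of 940 to 2645 in AAV8-irisin mice against 733 to 1005 in AAV8-GFP mice. The 8 oligodendrocyte markers also had higher means (median 0.11), with sums of 124691 to 149346 in AAV8-irisin mice against 107476 to 143697 in AAV8-GFP mice. Of the astrocyte markers 7 of 8 had a lower mean (median -0.046), and of the endothelial markers 3 of 6 (median -0.019). Several of these medians rested on single mice, AAV8-GFP mouse 3 above all. Without that mouse 9 of 12 microglial markers (median -0.073), 4 of 8 astrocyte markers (median -0.0031), 2 of 8 oligodendrocyte markers (median 0.030) and 2 of 6 endothelial markers (median 0.046) were lower in AAV8-irisin. Leaving out AAV8-irisin mouse 5 brought the microglial median to -0.074, and leaving out AAV8-irisin mouse 4 brought that of choroid plexus to 0.37. The neuronal median lay between -0.039 and 0.016 over the mice left out, above 0 only when AAV8-irisin mouse 1 was omitted. The endothelial median lay between -0.060 and 0.046, and was also above 0 with AAV8-irisin mouse 3 omitted (0.031) or mouse 5 of that group (0.012). No marker passed the adjusted threshold, and the part of these markers in the ribosomal protein values was not tested.

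Promoters of a few members on which the results turn are shown, since control of these genes is known to act through the start of the transcript. RefSeq promoters on GRCm38.p6, of 300 bases from 250 before to 50 after the annotated start, were matched by symbol for 60 of the 80 genes, 36 large and 24 small. Each line gives 60 bases before and 30 after the RefSeq start, 5′ to 3′ on the gene's own strand, and capitals mark runs of at least 8 pyrimidines that lie wholly inside the window.
Rpl13a, chr7:45128716-45128805, minus strand: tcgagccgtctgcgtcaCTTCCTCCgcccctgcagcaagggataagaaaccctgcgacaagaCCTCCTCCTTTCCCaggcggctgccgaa
Rpl37, chr15:5116553-5116642, plus strand: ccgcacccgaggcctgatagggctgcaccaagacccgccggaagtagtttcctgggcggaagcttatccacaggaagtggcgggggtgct
Rpl14, chr9:120571457-120571546, plus strand: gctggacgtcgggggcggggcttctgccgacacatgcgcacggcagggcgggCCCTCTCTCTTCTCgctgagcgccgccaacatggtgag
Rpl10, chrX:74270756-74270845, plus strand: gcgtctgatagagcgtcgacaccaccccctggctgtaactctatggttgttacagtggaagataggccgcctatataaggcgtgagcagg
Rps26, chr10:128626477-128626566, minus strand: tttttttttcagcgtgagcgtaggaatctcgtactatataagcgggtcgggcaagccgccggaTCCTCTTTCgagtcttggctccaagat
Rps27, chr3:90213619-90213708, minus strand: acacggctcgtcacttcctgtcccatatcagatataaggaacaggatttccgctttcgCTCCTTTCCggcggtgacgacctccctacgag
Rps27l, chr9:66946026-66946115, plus strand: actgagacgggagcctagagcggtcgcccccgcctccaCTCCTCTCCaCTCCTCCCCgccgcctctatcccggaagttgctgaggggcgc
In Rpl14 and Rps27 a run spans the start, in Rpl13a and Rps26 a run begins just after it, Rps27l has its runs before the start only, and the windows of Rpl37 and Rpl10 hold none. Windows of the same kind for Rps23, Rplp0 and Rps28, not printed, hold none either. That of Rpsa, also not printed, holds 1 run, which begins at -55 from the start. The printed windows therefore do not show how usual such runs are. For Rpl37 the GENCODE start, 5116645, lies beyond the end of the printed window. For Rpl14 and Rps26 the GENCODE starts, 120571444 and 128626747, lie upstream of the printed windows. The runs are placed by the RefSeq start only.

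A run of at least 8 pyrimidines within the 100 bases around the start was found in 83.3% of the large and 75% of the small subunit promoters, against 35.7% of all 27025 promoters in the table. The letters CCGGAA, read on both strands, are the core bound by ETS factors such as GABP, and were present in 50% of the large and 54.2% of the small subunit promoters, against 15.2% of all. GCCATNTT, read on both strands as a core of the YY1 motif, was present in 22.2% and 16.7%, against 6.23% of all. TATAAA, on both strands, was held by 11.1% and 8.33%, against 14.2% of all. CACGTG, the E-box that Myc can bind and which reads alike on both strands, was in 13.9% of the large subunit promoters and in 0 of 24 small subunit promoters, against 7.24% of all. A match describes letters in a window and does not show that a factor binds there.

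Among the large subunit genes the smallest unadjusted p belonged to Rpl37, a zinc-binding protein of the large subunit (chr15:5116645-5119140, plus strand, GENCODE M21 on mm10). Rpl37 had 3656, 3782, 3894, 3294 and 3552 normalised counts in AAV8-irisin mice 1 to 5, against 4419, 3588, 4006, 3671 and 4043 in AAV8-GFP mice 1 to 5. The groups overlapped: AAV8-GFP mouse 1 was highest and AAV8-irisin mouse 4 lowest, and AAV8-GFP mouse 2 lay below 3 AAV8-irisin mice. The log2 difference was -0.12 ± 0.058 (SE, 95% interval -0.24 to 0.0087) and the adjusted p was 0.942 by limma, against 0.0658 unadjusted.

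Rpl13a, which in human cells can leave the ribosome and silence inflammatory messages as part of the GAIT complex, had 12188, 12009, 12732, 11582 and 11335 normalised counts in AAV8-irisin mice, against 14762, 11936, 12540, 12298 and 12344 in AAV8-GFP mice. One library, AAV8-GFP mouse 1, stood above all others, and the remaining 9 lay between 11335 and 12732. The log2 difference was -0.091 (95% interval -0.20 to 0.021), and -0.038 without that mouse. Rpl23a, which lies at the exit of the tunnel through which new proteins leave, had 6213, 6111, 6524, 5834 and 5875 normalised counts in AAV8-irisin mice, against 7085, 5952, 6612, 6234 and 6291 in AAV8-GFP mice. Again AAV8-GFP mouse 1 was highest and the groups overlapped, with a log2 difference of -0.073 (95% interval -0.17 to 0.027).

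The stalk of the large subunit, formed by Rplp0 at its base and Rplp1 and Rplp2 as its arms, recruits the elongation factors. Rplp0 had 5575, 5782, 6299, 5466 and 5591 normalised counts in AAV8-irisin mice, against 6264, 5506, 6248, 6013 and 5798 in AAV8-GFP mice, and the highest value was that of AAV8-irisin mouse 3. Rplp1 had 11159, 11927, 12521, 10990 and 10940 in AAV8-irisin mice, against 13086, 11212, 12024, 11709 and 11478 in AAV8-GFP mice. For Rplp1, AAV8-irisin mice 1, 4 and 5 were under every AAV8-GFP mouse, and 3 such mice is the most that any member reached. Rplp2 had 3719, 3889, 4101, 3733 and 4003 in AAV8-irisin mice, against 4371, 3672, 4156, 3879 and 3595 in AAV8-GFP mice, and all AAV8-irisin values lay inside the AAV8-GFP range. The log2 differences were -0.055 for Rplp0, -0.049 for Rplp1 and -0.014 for Rplp2, with none past the threshold.

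The large subunit genes whose AAV8-irisin mean was the higher were 4, namely Rpl10, Rpl27a, Rpl10a and Rpl35, with log2 differences of 0.075, 0.020, 0.011 and 0.0084. In the small subunit Rps27l and Rps10 lay above 0, at 0.059 and 0.0016. All of their 95% intervals held 0. Rpl10 is described with its copy further on.

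Several genes of both subunits had log2 differences of about the same size. In the small subunit Rps28, Rps23 and Rps15 stood at -0.062, -0.046 and -0.065, and in the large subunit Rpl14 and Rpl13 at -0.061 and -0.068, with intervals that held 0.

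Rps14, whose loss of 1 gene copy underlies the anaemia of the human 5q- syndrome, had 5596, 5879, 6312, 5540 and 5575 normalised counts in AAV8-irisin mice, against 6455, 5700, 6200, 5865 and 6035 in AAV8-GFP mice. Of the AAV8-irisin mice 3 lay below every AAV8-GFP mouse, while AAV8-irisin mouse 3 was above all AAV8-GFP mice except mouse 1. Rps26, which contacts messenger RNA at the exit of its channel, had 3198, 3276, 3542, 3322 and 3159 in AAV8-irisin mice, against 3745, 3192, 3460, 3364 and 3448 in AAV8-GFP mice. The log2 differences were -0.067 for Rps14 and -0.060 for Rps26. Rpsa, also known as the precursor of the laminin receptor, had 9070, 9400, 10222, 9188 and 8877 in AAV8-irisin mice, against 10914, 9126, 10194, 9261 and 9195 in AAV8-GFP mice, with AAV8-irisin mouse 3 and AAV8-GFP mouse 1 at the top of their groups.

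**Figure D2:**
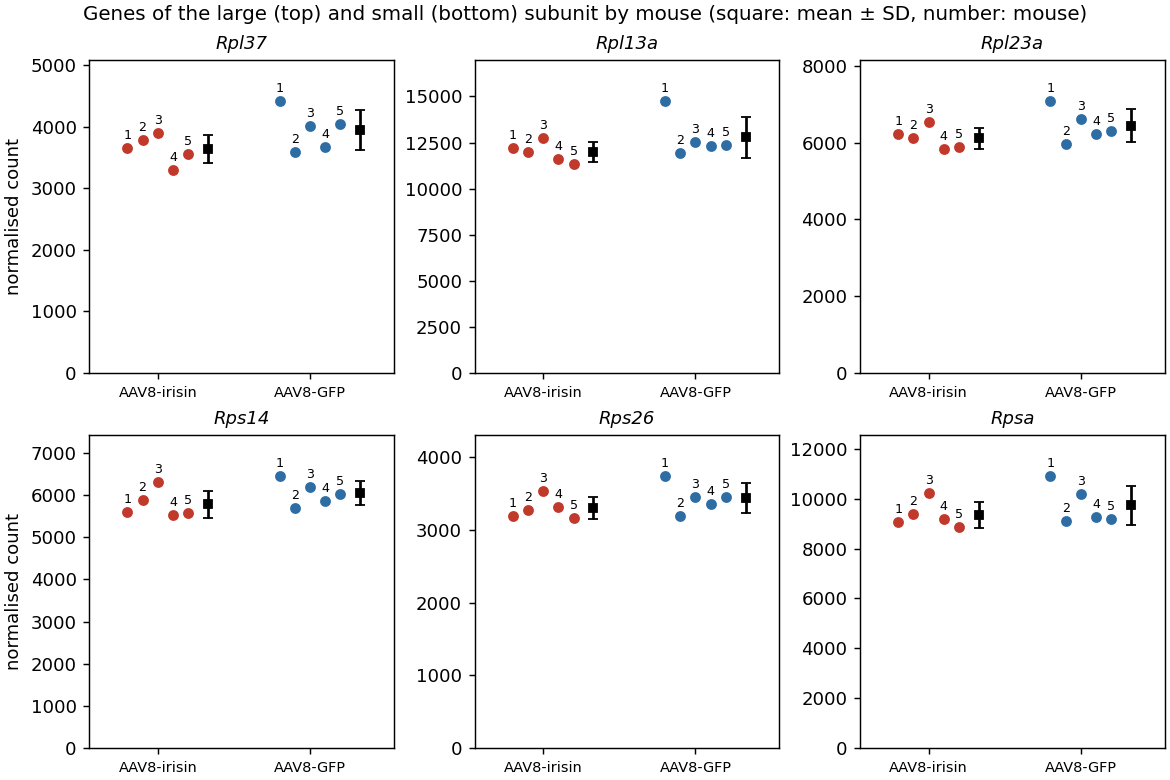
Normalised counts (y axis, from 0) of Rpl37, Rpl13a and Rpl23a of the large subunit (top) and Rps14, Rps26 and Rpsa of the small subunit (bottom), with AAV8-irisin mice on the left and AAV8-GFP mice on the right of each panel; points are mice with their number, squares are means ± SD (n = 5). In all 6 genes AAV8-GFP mouse 1 is the highest of the 10, as with Rpl13a at 14762, and the other 4 AAV8-GFP mice overlap the AAV8-irisin mice.

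Some members are paralogues of each other, and differences between the partners of a pair were not tested. Rpl22 had 3524, 3389, 3594, 3123 and 3168 normalised counts in AAV8-irisin mice, against 3749, 3312, 3659, 3429 and 3301 in AAV8-GFP mice. Its paralogue Rpl22l1, whose level rises in mice that lack Rpl22, had 1249, 1235, 1456, 1258 and 1169 in AAV8-irisin mice, against 1332, 1320, 1331, 1250 and 1262 in AAV8-GFP mice. Both had lower means in AAV8-irisin, with log2 differences of -0.055 and -0.032 and intervals that held 0. Rps27l, a paralogue of Rps27 that human p53 induces, had 246, 256, 253, 250 and 240 in AAV8-irisin mice, against 275, 233, 218, 236 and 236 in AAV8-GFP mice. Its AAV8-irisin values were close together and lay inside the AAV8-GFP range, which mouse 1 and mouse 3 of that group set at its ends. The log2 difference of Rps27l was 0.059 (95% interval -0.10 to 0.22). The paralogues Rpl7 and Rpl7l1 had log2 differences of -0.028 and -0.0053, and X-linked Rps4x had -0.036. Rpl36 and Rpl36a share only a number in their names, and so do Rps3 and Rps3a1. The first 2 of these had log2 differences of -0.020 and -0.051, and the other two of -0.0033 and -0.020.

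Levels set per kb of annotated transcript differed widely within each subunit. In the large subunit the mean normalised count per kb was highest for Rplp1 at 23456, the small basic Rpl41 at 16107 and Rpl3, near the catalytic centre, at 12692. It was lowest for Rpl12 at 401, Rpl5 at 471 and Rpl7l1, a paralogue of Rpl7, at 472, against a median of 6343 over the subunit. In the small subunit Rps15, Rps29 and Rps21 stood at 17076, 13153 and 11779, and Rps27l, Rps20 and Rps15a at 490, 702 and 893, against a median of 6637. The annotated transcripts chosen for Rps15a and Rps20 are 5130 and 3706 bases long, which lowers their level per kb. Those of Rpl7l1, Rpl5 and Rpl12 are 2606, 2045 and 1242 bases, also longer than the median of 774.5 over the members. Before division by length, their mean normalised counts were 1231, 962 and 498, against a median of 4387 over the large subunit. Of the members with low levels, Rpl12 had a log2 difference of -0.014 (95% interval -0.18 to 0.15) and Rpl5 of -0.031 (95% interval -0.14 to 0.074).

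The members moved together from mouse to mouse, and both groups held high and low mice. In AAV8-irisin mice 1 to 5, 10, 32, 76, 6 and 6 of the 80 genes were above their own mean over the 10 mice, against 78, 6, 71, 17 and 26 in AAV8-GFP mice 1 to 5. AAV8-irisin mouse 3 and AAV8-GFP mice 1 and 3 were thus high for most members. AAV8-irisin mice 1, 4 and 5 and AAV8-GFP mouse 2 were lowest by this count. Over all 17556 tested genes, 8868 to 9032 were above their own mean in each mouse. Of 63 nuclear genes of oxidative phosphorylation, 59 were so in AAV8-GFP mouse 1, 52 in AAV8-irisin mouse 3 and 36 in AAV8-GFP mouse 3. In AAV8-irisin mice 1, 4 and 5 and AAV8-GFP mouse 2 these counts were 10, 5, 12 and 14. AAV8-GFP mouse 1 was the highest of all 10 for 66 of the 80 genes, 35 large and 31 small. The lowest mouse was AAV8-irisin mouse 5 for 25 genes, AAV8-GFP mouse 2 for 23, AAV8-irisin mouse 4 for 15 and AAV8-irisin mouse 1 for 12.

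**Figure D3:**
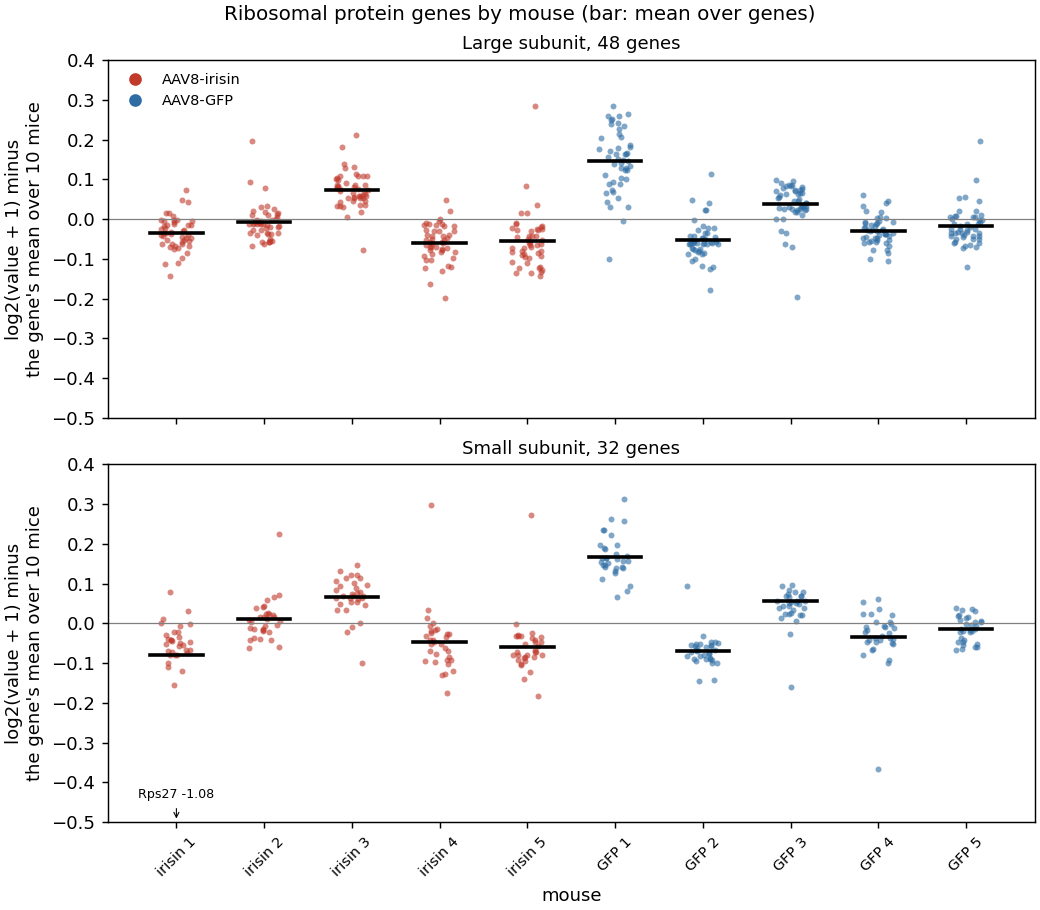
Log2(value + 1) of each gene minus its mean over the 10 mice (y axis) for the 48 large subunit genes (top) and 32 small subunit genes (bottom) in each mouse, AAV8-irisin on the left and AAV8-GFP on the right; points are genes and bars their mean. The bar of AAV8-GFP mouse 1 stands at 0.147 for the large and 0.168 for the small subunit, that of AAV8-irisin mouse 3 at 0.074 and 0.067, and 1 point, Rps27 in AAV8-irisin mouse 1, lies below the axis and is marked by an arrow.

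As a share of the summed values of a library, the large subunit genes took 0.694%, 0.701%, 0.748%, 0.685% and 0.680% in AAV8-irisin mice, against 0.809%, 0.681%, 0.719%, 0.694% and 0.699% in AAV8-GFP mice. The means were 0.701% ± 0.027 and 0.720% ± 0.051 (SD, n = 5 each). The small subunit genes took 0.435%, 0.447%, 0.474%, 0.433% and 0.429% in AAV8-irisin mice, against 0.513%, 0.427%, 0.458%, 0.439% and 0.445% in AAV8-GFP mice, with means of 0.443% ± 0.018 and 0.456% ± 0.034. In both subunits the difference between the means was smaller than the SD of either group. AAV8-GFP mouse 1 was highest in both subunits, and the other 4 AAV8-GFP mice lay within the AAV8-irisin range, except mouse 2 in the small subunit, at 0.427% against a lowest AAV8-irisin share of 0.429%.

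Within groups the members varied less than the median gene, and less again relative to each other. The median within-group SD of log2(value + 1) was 0.082 over the members, against 0.122 over all tested genes, and it was 0.039 once the mean of the members in each library was subtracted. Other groups of genes were not treated by such a subtraction. The SD was lower still for other TOP messages (0.051), initiation factors (0.066), nuclear oxidative phosphorylation (0.068) and elongation factors (0.071). It was higher for ribosome biogenesis (0.083), the large mitochondrial ribosome (0.092) and mTOR signalling and TOP control (0.097). The ratio of the highest to the lowest library was 1.196 for the median member, 1.08 at the least and 2.91 at the most. Rpl7a, Rpl27a and Rps23, a protein of the decoding centre, varied least, with SDs of 0.037, 0.043 and 0.045. Rps27, Rpl7l1 and Rps20 varied most, with SDs of 0.47, 0.15 and 0.13.

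The medians of the subunits moved with other single mice too. Without AAV8-irisin mouse 3 they were -0.056 for the large and -0.065 for the small subunit, and without AAV8-GFP mouse 2 they were -0.049 and -0.066. Without AAV8-irisin mouse 5 they were -0.022 and -0.027. With libraries weighted by their quality they were -0.015 and -0.020, and 37 large and 25 small subunit genes had the lower mean.

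Other short messages also had a lower mean in AAV8-irisin more often than long ones. The members' annotated transcripts had a median length of 774.5 bases, and 59 of 80 were under 1000 bases. Among the 890 other protein-coding genes with a transcript under 1000 bases, 66.6% were lower in AAV8-irisin by their means, and the median of the log2 differences was -0.034. The share was 58.1% for the 3304 genes of 1000 to 1999 bases, 49.8% for the 6217 genes of 2000 to 3999 bases and 37.8% for the 4620 genes from 4000 bases, whose median was 0.021. The 59 members under 1000 bases had a median of -0.038, with 54 lower in AAV8-irisin, and the 16 members of 1000 to 1999 bases had a median of -0.033, with 15 lower. All 4 members of 2000 to 3999 bases were lower, with a median of -0.043, and so was the 1 member from 4000 bases, at -0.037. Without AAV8-GFP mouse 1, 55.6% of the other genes under 1000 bases and 49.4% of those from 4000 bases were lower in AAV8-irisin, and the medians were -0.0075 and 7.3e-04.

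By mouse, the mean deviation of the other coding genes under 1000 bases was 0.046 in AAV8-irisin mouse 3 and -0.061 and -0.058 in AAV8-irisin mice 4 and 5. It was 0.104 in AAV8-GFP mouse 1, where the genes from 4000 bases stood at -0.084. In AAV8-irisin mouse 1 and AAV8-GFP mouse 3 the members and the other short genes lay apart by their means. In AAV8-irisin mouse 1 the ribosomal protein genes stood at -0.054 and the other genes under 1000 bases at 4.5e-04. The medians of these deviations were closer, at -0.043 and -0.029, and that of the genes from 4000 bases was 0.013. In AAV8-GFP mouse 3 the ribosomal protein genes stood at 0.044 while the other genes under 1000 bases stood at -0.0036. AAV8-GFP mouse 3 also stood apart in several marker lists, at 0.301 for microglia, 0.200 for astrocytes and 0.287 for endothelium, each the highest of the 10 mice, and at -0.329 for oligodendrocytes, the lowest. AAV8-GFP mouse 1 stood at 0.026 for microglia and at 0.731 for blood, where AAV8-GFP mice 4 and 5 stood at 0.790 and 0.679. The part of transcript length or of cell mixture in the ribosomal protein values was not tested.

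**Figure D4:**
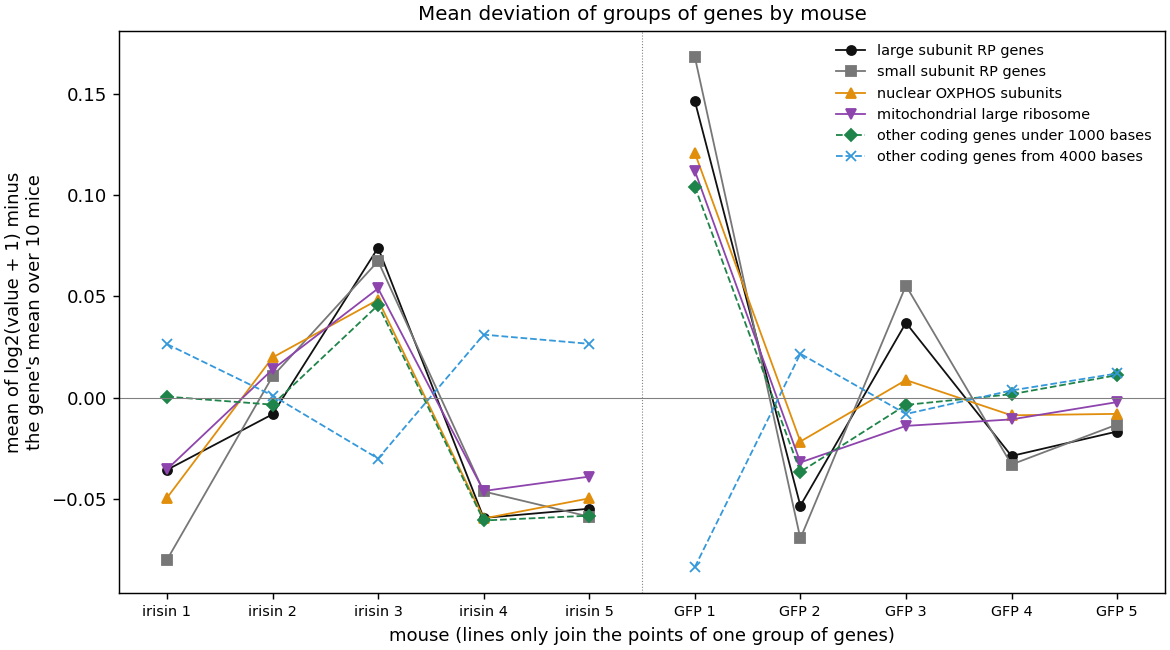
Mean over genes of log2(value + 1) minus the gene's mean over the 10 mice (y axis) in each mouse, AAV8-irisin on the left and AAV8-GFP on the right, for the large and small subunit genes, 63 nuclear genes of oxidative phosphorylation, 49 genes of the large mitochondrial ribosome, and other coding genes with transcripts under 1000 or from 4000 bases. All groups except the long genes peak in AAV8-GFP mouse 1, where the long genes are lowest at -0.084.

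Some genes close to the members do not match the symbol rule. A list of 6 of them, which holds Fau, a ribosomal protein gene, the Rpl36a paralogue Rpl36al, the retrogene Rps27rt, Rps19bp1, whose product binds Rps19, and the small subunit scaffold Rack1, had lower means in AAV8-irisin throughout (6 of 6, median -0.076), with 0 called. Without AAV8-GFP mouse 1, 5 of the 6 were lower and the median was -0.023, and 4 of the 6 were lower when AAV8-irisin mouse 4 or mouse 5 was omitted. Fau had 4520, 4702, 5010, 4553 and 4382 normalised counts in AAV8-irisin mice, against 5832, 4566, 5021, 4559 and 4704 in AAV8-GFP mice, and AAV8-GFP mouse 1 was again the highest.

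Of 10 elongation factor genes, 9 had a lower mean in AAV8-irisin (median -0.038) and 0 were called. Eef1a2, the neuronal form of the factor that brings aminoacyl-tRNA to the ribosome, averaged 31268 ± 452 normalised counts in AAV8-irisin mice and 33431 ± 1742 in AAV8-GFP mice (SD, n = 5 each). Its groups did not overlap, with a log2 difference of -0.095 (95% interval -0.17 to -0.022) and an adjusted p of 0.942 by limma, against 0.0148 unadjusted. Eef2, which moves the ribosome along the message, had a log2 difference of -0.057. Initiation factor genes were divided, 18 of 34 with a lower mean (median -0.00092), among them Eif2b4 at -0.16 and, in the other direction, Eif4g2 at 0.067. Of 24 other TOP messages, 18 had a lower mean (median -0.031), and 12 of the 24 also stand among the elongation, initiation or preceding genes. Gas5, a TOP transcript that hosts small nucleolar RNAs, had -0.071. The medians of these lists moved with single mice. Without AAV8-GFP mouse 1 they were -0.021 for elongation factors (8 of 10 lower) and -0.019 for the other TOP messages (19 of 24 lower). For the elongation factors the median was -0.064 without AAV8-GFP mouse 2 and -0.025 without AAV8-irisin mouse 5. For the other TOP messages it was -0.019 without AAV8-GFP mouse 3 and -0.013 without AAV8-irisin mouse 5. The initiation median lay on either side of 0, between -0.0045 and 0.0073, over the mice left out.

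Genes that build and control ribosomes were divided in direction. Of 40 ribosome biogenesis genes 23 had a lower mean in AAV8-irisin (median -0.025) and 0 were called. An unadjusted p under 0.05 in limma was reached by 8 of them, beside 4.49% of all tested genes. The list was chosen with earlier results of these data known. Rrp8, a nucleolar methyltransferase, averaged 322 ± 25.5 normalised counts in AAV8-irisin mice and 240.3 ± 24.1 in AAV8-GFP mice, without overlap (log2 difference 0.42, adjusted p 0.942 by limma, 2.4e-04 unadjusted). Polr1e, a subunit of RNA polymerase I, averaged 183 ± 18.8 in AAV8-irisin mice and 236 ± 43.99 in AAV8-GFP mice (log2 difference -0.35). Of 18 genes of mTOR signalling and TOP control 12 had a lower mean (median -0.022). Tsc2, which restrains mTORC1, averaged 5780 ± 298 in AAV8-irisin mice and 6407 ± 499.9 in AAV8-GFP mice (log2 difference -0.15, adjusted p 0.942 by limma, 0.0130 unadjusted), and Eif4ebp2, a repressor of initiation that mTORC1 phosphorylates, had a log2 difference of -0.066. Without AAV8-GFP mouse 1 the biogenesis median was -0.0075 (22 of 40 lower) and the mTOR median -0.012 (13 of 18 lower). Without AAV8-irisin mouse 1 the biogenesis median was -0.013, the mTOR median was -0.014 without AAV8-GFP mouse 4 and -0.034 without AAV8-irisin mouse 3.

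Nuclear genes of oxidative phosphorylation, the respiratory chain and ATP synthase of mitochondria, had lower means in AAV8-irisin in 49 of 63 cases (median -0.041), and 34 of 49 genes of the large mitochondrial ribosome did (median -0.028). Without AAV8-GFP mouse 1 these counts were 38 and 25, and the medians -0.0067 and -0.0028. The median of the mitochondrial ribosome was -0.011 when AAV8-irisin mouse 4 was omitted and -0.019 when mouse 5 of that group was, and omitting this mouse 5 gave -0.026 for oxidative phosphorylation. Mrpl24 and Mrpl1, of that ribosome, had log2 differences of -0.10 and 0.15, with intervals that held 0. Ndufv1 and Ndufv3, both subunits of complex I, had lower values in every AAV8-irisin mouse than in any AAV8-GFP mouse, with log2 differences of -0.095 and -0.13 and an adjusted p of 0.942 each in limma.

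Near-identical copies limit how single members can be read. Of the 80 members, 75 have at least 1 annotated copy elsewhere in the genome with at least 95% identity over at least 90% of the coding sequence (563 copies in all, median 5 per member, 55 at the most), and 16 of these copies have a row of their own in the table, for 11 members. How reads that match several places were counted is not given in the sources used here. Of the members, 19 also overlap an exon of another gene on the opposite strand and 27 on the same strand, and the strand setting of the counting is not given either.

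Rps27, a zinc-binding protein of the small subunit (chr3:90212522-90213651, minus strand), was the most variable member. It had 854, 2114, 1687, 2223 and 2187 normalised counts in AAV8-irisin mice, against 2162, 1930, 2490, 1404 and 1736 in AAV8-GFP mice. Its retrogene Rps27rt on chromosome 9 had 2847, 1709, 2356, 1596 and 1442 in AAV8-irisin mice, against 2271, 1845, 1525, 2400 and 2144 in AAV8-GFP mice. The mouse with the lowest Rps27, AAV8-irisin mouse 1, had the highest Rps27rt, and AAV8-GFP mouse 4, low in Rps27, was second highest in Rps27rt. Summed, the rows gave 3701, 3822, 4043, 3819 and 3629 in AAV8-irisin mice, against 4432, 3775, 4015, 3804 and 3880 in AAV8-GFP mice.

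The within-group SD of log2(value + 1) was 0.47 for Rps27, 0.35 for Rps27rt and 0.079 for their sum, and the sum was highest in AAV8-GFP mouse 1, AAV8-irisin mouse 3 and AAV8-GFP mouse 3, the mice that were high for most members. Rps27 made up 23.1% of the sum in AAV8-irisin mouse 1 and 41.7% to 60.3% in the other AAV8-irisin mice, against 36.9% to 62.0% in AAV8-GFP mice. The log2 difference was -0.15 ± 0.23 (SE) for Rps27 alone, the largest in size of all 80 members, and -0.064 ± 0.047 for the sum, in a fit chosen after the data were seen.

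Rpl10, a large subunit protein added late in the cytoplasm before the subunits can join, had 1833, 1829, 1903, 1692 and 2246 normalised counts in AAV8-irisin mice, against 1719, 1874, 1764, 1718 and 1915 in AAV8-GFP mice. Only AAV8-irisin mouse 5 stood above all AAV8-GFP mice. The copy Rpl10-ps3 on chromosome 9, annotated as protein-coding, had 4718, 4646, 5127, 4807 and 4299 in AAV8-irisin mice, against 5369, 4742, 5176, 4779 and 4758 in AAV8-GFP mice. Rpl10-ps3 thus had the higher values in each of the 10 mice, and AAV8-irisin mouse 5, highest in Rpl10, was lowest in Rpl10-ps3. The log2 difference was 0.075 (95% interval -0.065 to 0.21) for Rpl10 and -0.031 for the sum of both rows, so the sign depended on the row read.

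**Figure D5:**
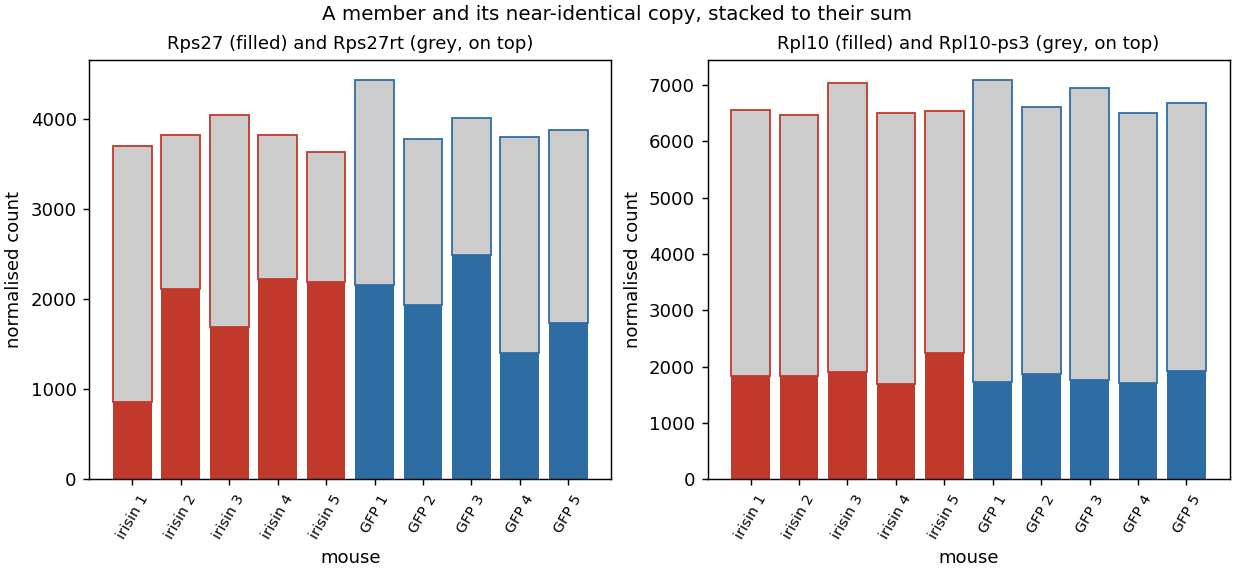
Normalised counts (y axis) of Rps27 and Rps27rt (left) and of Rpl10 and Rpl10-ps3 (right) stacked in each mouse, AAV8-irisin on the left and AAV8-GFP on the right of each panel; the filled part is the member and the grey part its copy. Rps27 ranges from 854 to 2490, while the height of its stack stays between 3629 and 4432, and Rpl10 is the smaller part of its stack in all 10 mice.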

How the data were processed

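Bulk RNA sequencing was done on hippocampi of 10 mice, 5 per treatment, from oligo(dT)-captured messenger RNA with the NEBNext Ultra kit, per the labels' protocols. The submitters' processing notes name bcl2fastq 2.17, DESeq2 and the build mm10. The aligner, counter, annotation and strand setting are not given in the sources used here. As deposited, the values are a signal per gene and library that the authors made with DESeq2 and name normalised counts. Whole reads could not be recovered from them, so no count model was used and the depth is an estimate. How the values were scaled beyond the name DESeq2 is not given. Low values within a library differed between genes, as with 0.946 for Gm11361, a copy of Rps18, and 1.04 for Rpl39l in AAV8-irisin mouse 1. Whether scaling differed by gene as well as by library was not tested. Scaling that sets the typical gene equal across libraries would hide a change common to every gene.

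Genes were kept (17556) where at least 5 of 10 libraries had a value of 10 or more. Log2(value + 1) was fitted with limma 3.58.1 in R 4.3.3 (trend, group as the factor, two-sided, Benjamini-Hochberg over all genes, threshold 0.05); a pseudocount of 1 understates changes of low genes. The fit was also run on simulated data, with genes drawn independently and changes larger than the medians of the members. That run does not bear on differences as small as these, or on genes that move together. Each library is from its own mouse per the labels, and the replicate error is the spread over mice. Lists and subunits are described by counts and medians, with no test. The members and lists were chosen with earlier results of these data known.

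Named genes were, per subunit, the 6 of smallest unadjusted p, the 3 highest and 3 lowest per kb, members without overlap of the groups, members that share a number or are paralogues, the stalk genes and Rpsa, and 2 genes of smallest p from each list; other genes were named after their values were seen. Of these, the text gives those on which a result turns, and some genes are not reported here. Positions, lengths and copies are from GENCODE M21 on mm10 (97.5% of symbols matched), copies by blastn 2.17.0, and promoters from RefSeq on GRCm38.p6. Alternatives were other pseudocounts, no filter, other scalings, other variance settings, a replicate block, members without paralogues, each mouse left out, and copies summed.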

Additional observations from a re-analysis of the deposited data

Results flagged for a closer look

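Over the 44 named members and the library share of each subunit, 92 groups of 5 mice were examined for a mouse far from the other 4, by the ratio of its gap to the range of the group (Dixon's test at 95%). Chance gives such a mouse in about 1 in 20 groups, and the members are not independent of each other. It was found in 8 groups, always at the high end and always in AAV8-irisin mouse 3 or AAV8-GFP mouse 1.

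In AAV8-irisin mouse 3 the ratio was 0.714 for Rpl10a, 0.745 for Rpl14, 0.721 for Rpl3, 0.717 for Rps15 and 0.768 for Rps21. Rps21, for example, had 5127 normalised counts there, and 4288 to 4483 in the other AAV8-irisin mice. In AAV8-GFP mouse 1 the ratio was 0.786 for Rpl13a, 0.775 for Rpl18 and 0.723 for Rpl27. Rpl13a had 14762 normalised counts there, and 11936 to 12540 in the other AAV8-GFP mice. These are also the mice in which the members as a group had their highest mean deviation, 0.071 in AAV8-irisin mouse 3 and 0.155 in AAV8-GFP mouse 1. The flagged members are part of that mean, so it is no separate support for the flags.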

How the results depend on the processing

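No member was called in any fit, and the smallest adjusted p of a named member over all fits was 0.794. Without the filter on low values 1 gene of the whole table was called, Gm49383, which is no member. With the filter kept, leaving out any 1 mouse gave 0 calls. Leaving out a mouse was not tried without the filter. Without the paralogues the medians were -0.033 and -0.046. Leaving out each mouse in turn gave medians of -0.056 to -0.0020 for the large and -0.066 to -0.0075 for the small subunit, and 26 to 45 and 22 to 31 genes with a lower mean in AAV8-irisin, the lowest counts without AAV8-GFP mouse 1. Of 44 named members, 27 kept their sign in every alternative and 17 did not. With equal library sums the log2 difference turned to 7.6e-05 for Rpl27 and 1.5e-04 for Rps3. With quality weights it turned to 0.021 for Rpl27, 0.021 for Rpl36, 5.6e-04 for Rpl7l1, 0.013 for Rplp2, 0.0063 for Rps3 and 0.0030 for Rps3a1. With copies summed, chosen after the data were seen, Rpl10 turned to -0.031. The cause of these turns was not tested. Leaving out a mouse gave ranges across 0 for Rpl10a (-0.021 to 0.049), Rpl12 (-0.068 to 0.020), Rpl18 (-0.090 to 0.0048), Rpl27 (-0.023 to 0.034), Rpl3 (-0.048 to 0.0063), Rpl35 (-0.035 to 0.072), Rpl36 (-0.048 to 0.041), Rpl7 (-0.046 to 0.0098), Rpl7a (-0.020 to 0.0070), Rpl7l1 (-0.055 to 0.043), Rplp2 (-0.045 to 0.025), Rps15a (-0.066 to 0.0023), Rps20 (-0.11 to 0.0072), Rps27 (-0.27 to 0.097), Rps3 (-0.026 to 0.013) and Rps3a1 (-0.044 to 0.019).

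Mouse numbers are shared between the groups, but mice with the same number did not deviate together (correlations of -0.089 to 0.030 over the 5 pairs). Mice with different numbers were not compared in this way, so whether the numbers pair the mice was not settled. The main fit used no pairing. With the number as a replicate block 0 genes were called, the medians stayed at -0.032 and -0.045, and 1 member had an unadjusted p under 0.05.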
